A study of Mus musculus with 16 samples.

Results

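Hsd17b6, Apcdd1, Flrt3 and Csn2 are 4 of the 17721 genes listed for splenic conventional dendritic cells (cDCs), and 4 of the 17128 listed for plasmacytoid dendritic cells (pDCs). They were chosen on these data, by TPM near 0 in WT cDCs and high in cKO cDCs, with a different size in the cDC1 and cDC2 subsets. TPM is a level per transcript length, scaled to the same total in every library. The values of the 4 genes, including the difference between the subsets, are therefore given as a description with no test, and tests are confined to other genes. The RNA of spleen dendritic cells from C57BL/6 mice of 6 to 8 weeks was sequenced in 16 libraries. WT mice were Trim33 fl/fl, and cKO mice were Trim33 fl/fl Itgax-Cre, so both carry the floxed Trim33 alleles and the cKO mice also carry a Cre recombinase driven by Itgax, the CD11c gene. pDCs (CD11c+ SiglecH+) and cDC2s (SiglecH-, MHC class II+, CD24-, CD172a+) have 3 libraries per genotype and cDC1s (SiglecH-, MHC class II+, CD24+, CD172a-) have 2. Each library holds cells pooled from several mice, with more mice per pool for cKO than for WT, so the spread between libraries is that between pools, and no label names the mice of a pool.

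The genes lie on 4 chromosomes (RefSeq, GRCm38.p6). Hsd17b6 is at chr10:127990931-128007648, Apcdd1 at chr18:62922327-62953815, Flrt3 at chr2:140658198-140671476 and Csn2 at chr5:87692619-87699429. All are protein-coding. Flrt3 lies within the far longer Macrod2 gene, which is on the opposite strand, and the 2 genes share 0 exonic bases in the GENCODE M21 annotation. The other 3 genes overlap no other gene of the RefSeq table.

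TRIM33 is a tripartite motif protein, an E3 ubiquitin ligase that reads modified histones and acts as a transcription co-factor, also in TGF-beta signalling. The 4 genes code for proteins known from other tissues. Hsd17b6 encodes a membrane-bound hydroxysteroid and retinol dehydrogenase of the short-chain dehydrogenase family, best known from liver. Apcdd1 encodes a membrane glycoprotein that binds WNT proteins and their co-receptor and dampens WNT signalling, known from skin and hair follicles. Flrt3 encodes a leucine-rich repeat transmembrane protein that binds latrophilins and UNC5 receptors in cell adhesion and axon guidance. Csn2 encodes beta-casein, a major milk protein that mammary epithelium makes under prolactin and STAT5.

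The DNA just before the start of 3 of the 4 genes is printed here, since the RNA of these genes went from near 0 to abundant. The windows searched hold the 250 bases before the first start in RefSeq's promoter set, on the minus strand, and are given 5′ to 3′ at chr10:128007619-128007861 for Hsd17b6 (the 7 bases nearest the start are not shown, and the RefSeq gene span reaches 37 bases into the window), chr2:140671477-140671726 for Flrt3 and chr5:87699426-87699675 for Csn2. Capitals mark matches, on either strand, to the CCAAT box (CCAAT), the STAT element (TTCNNNGAA) and the core of a PU.1-type ETS site (GAGGAA), none of which overlap each other.
Hsd17b6: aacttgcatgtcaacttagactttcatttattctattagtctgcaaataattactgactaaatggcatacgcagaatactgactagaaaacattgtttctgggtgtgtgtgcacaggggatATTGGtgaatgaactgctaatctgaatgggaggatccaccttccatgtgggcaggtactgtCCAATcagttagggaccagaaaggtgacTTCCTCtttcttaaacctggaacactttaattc
Flrt3: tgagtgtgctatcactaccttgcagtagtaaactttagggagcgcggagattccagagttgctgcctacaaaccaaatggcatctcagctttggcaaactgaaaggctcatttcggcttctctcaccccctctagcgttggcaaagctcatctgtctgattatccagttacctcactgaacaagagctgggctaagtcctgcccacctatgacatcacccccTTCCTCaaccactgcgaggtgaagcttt
Csn2: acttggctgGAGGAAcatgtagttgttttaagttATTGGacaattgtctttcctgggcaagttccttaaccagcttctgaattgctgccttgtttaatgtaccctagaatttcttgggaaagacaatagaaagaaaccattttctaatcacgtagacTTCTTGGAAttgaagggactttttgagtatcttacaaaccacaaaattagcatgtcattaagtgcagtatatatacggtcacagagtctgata

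All 3 windows held 1 match to the ETS core, which 23.3% of the 32851 RefSeq promoter windows of this length held. The match lay 40 bases before the start in Hsd17b6, 28 bases before it in Flrt3 and 241 bases before it in Csn2. The STAT element, present in 7.02% of all windows, was found in the Csn2 window alone, at 93 bases before the start. The CCAAT box (33.8% of all windows) had 2 matches in Hsd17b6 and 1 in Csn2. The windows held 1 CpG (Hsd17b6), 5 (Flrt3) and 2 (Csn2), where the median over all windows was 6 and the quartiles were 2 and 16. The E-box letters CANNTG (66.2% of all windows) had 1 match in Hsd17b6, 2 in Flrt3 and 1 in Csn2, and the SMAD letters CAGAC (42.2%) had 1 in each, of which that in Flrt3 shares its first base with the last base of an E-box match. None of these 3 windows held the TATA letters TATAA, the AP-1 letters TGANTCA or an interferon response element of 2 GAAA repeats with 2 bases between them, which 22.8%, 6.75% and 2.98% of all windows held. The TATA search read the letters TATAA exactly. It does not count the stretch TATATATA that the printed Csn2 window holds close to the gene start, so a TATA-like sequence there is not excluded. RefSeq's promoter set lists another start for Hsd17b6 (chr10, position 128007508), inside the gene span. The 250 bases before that start overlap the window printed, and held 1 match to the TATA letters, 33 bases before it, together with 3 CCAAT matches, 1 ETS core, 1 E-box and 0 CpG. A match in these letters is a description of the sequence and says nothing of binding.

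Hsd17b6 had the highest level of the 4 genes. In WT cDC1s it stood at 0.13 and 0.07 TPM, which is 2 reads and 1 read, and in cKO cDC1s at 704 and 814 TPM. It ranked 193rd and 173rd of 17721 genes in the cKO cDC1 libraries. WT cDC2s gave 3.91, 0.16 and 0.00 TPM and cKO cDC2s 108, 128 and 112 TPM. The groups were apart in both subsets, and 1 WT cDC2 library stood above the other 2, with 53 to 56 reads against 2 and 0. The mean of WT cDC2s was 1.36 TPM with that library and 0.08 TPM without it. In pDCs the 3 WT libraries were listed at 0 and the cKO libraries at 0.81, 0.18 and 0.42 TPM, or 10 to 11, 2 and 5 reads.

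Apcdd1, the WNT inhibitor, was the only one of the 4 with reads in every library. WT cDC1s had 0.06 TPM in both libraries, 1 read each, and cKO cDC1s had 160 and 167 TPM. WT cDC2s had 0.95, 1.48 and 0.20 TPM and cKO cDC2s 25.4, 25.8 and 32.4 TPM. In pDCs the WT libraries were at 2.84, 2.54 and 2.39 TPM and the cKO libraries at 19.2, 14.8 and 10.2 TPM. WT pDCs were thus above every WT cDC library in this gene (pDCs and cDCs are listed in separate tables, so this was not tested), with 37 to 44 reads each, and the groups of each subset did not overlap.

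Flrt3, the adhesion and guidance protein, was highest in cDC2s. WT cDC2s had 0.32, 0.21 and 0.03 TPM and cKO cDC2s 176, 189 and 171 TPM. WT cDC1s had 0.02 and 0.18 TPM and cKO cDC1s 51.3 and 51.6 TPM. The 3 WT pDC libraries were listed at 0 and the cKO pDC libraries at 1.72, 0.47 and 2.09 TPM. As for Hsd17b6, the cKO values lay above all WT values of the same subset.

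Csn2, the beta-casein gene, reached the lowest top level of the 4 and, like Flrt3, was higher in cKO cDC2s than in cKO cDC1s. WT cDC2s had 0.19, 0.58 and 0.00 TPM and cKO cDC2s 47.9, 58.8 and 53.9 TPM. Both WT cDC1 libraries were listed at 0, and the cKO cDC1 libraries had 7.87 and 11.7 TPM. All WT pDC libraries were at 0 and the cKO pDC libraries at 0.11, 0.11 and 0.00 TPM, which is at most 1 read. In pDCs the groups overlapped.

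**Figure D1:**
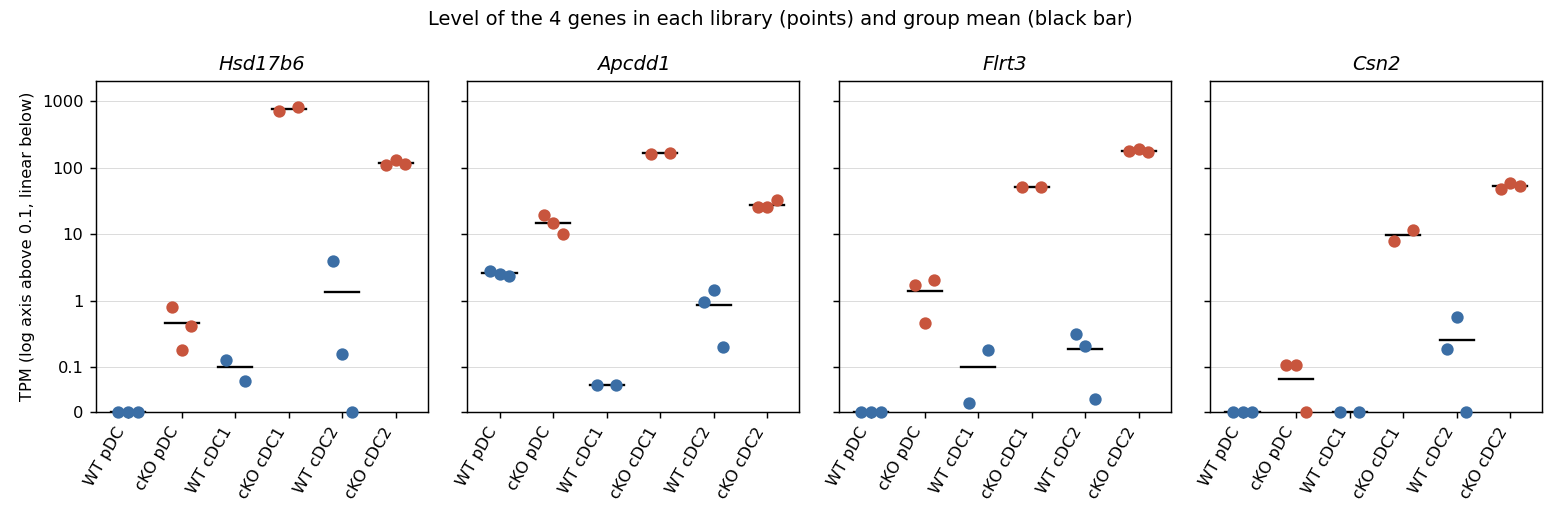
TPM of the 4 genes in each of the 16 libraries (points; y axis logarithmic above 0.1 TPM and linear below), by subset and genotype, with the group mean as a black bar; WT in blue, cKO in red. Hsd17b6 and Apcdd1 were highest in cKO cDC1s (704 to 814 and 160 to 167 TPM) and Flrt3 and Csn2 in cKO cDC2s (171 to 189 and 47.9 to 58.8 TPM).

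In the order of the 6 groups, the 2 highest means of every gene were those of cKO cDC1s and cKO cDC2s. Hsd17b6 averaged 759 ± 77.5 TPM (SD, n = 2) in cKO cDC1s and 116 ± 10.6 (SD, n = 3) in cKO cDC2s, a ratio of 6.52 with 5.49 to 7.51 over the pairs of libraries. Apcdd1 averaged 163 ± 4.94 TPM (SD, n = 2) in cKO cDC1s and 27.9 ± 3.95 (SD, n = 3) in cKO cDC2s, a ratio of 5.86 (4.93 to 6.57). The order was turned for the other 2 genes. Flrt3 averaged 179 ± 9.61 TPM (SD, n = 3) in cKO cDC2s and 51.5 ± 0.212 (SD, n = 2) in cKO cDC1s, a ratio of 3.47 (3.31 to 3.69). Csn2 averaged 53.5 ± 5.43 TPM (SD, n = 3) in cKO cDC2s and 9.79 ± 2.71 (SD, n = 2) in cKO cDC1s, a ratio of 5.47 (4.10 to 7.47). The ranges of these highest 2 groups did not overlap each other or any other group for any of the 4 genes.

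The lower places differed between the genes. cKO pDCs came next for Apcdd1 (14.7 ± 4.48 TPM, SD, n = 3) and for Flrt3 (1.43 ± 0.849), ahead of every WT group and with ranges apart from the next group. For Hsd17b6 the next groups, WT cDC2s and cKO pDCs, overlapped in range, and for Flrt3 so did WT cDC2s and WT cDC1s. For Csn2 the last 4 groups in the order were at a mean of 0.257 TPM or less and each overlapped the next. The cKO pDC mean was 9.01% of the highest group mean for Apcdd1, 0.799% for Flrt3, 0.137% for Csn2 and 0.0619% for Hsd17b6.

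On the scale of log2(TPM + 1), the cKO minus WT difference in cDC1s was 9.43 for Hsd17b6, 7.28 for Apcdd1, 5.58 for Flrt3 and 3.41 for Csn2. In cDC2s the same difference was 6.03, 4.0, 7.25 and 5.46. These values chose the genes, and their size depends on the number added before the logarithm: with 0.1 in place of 1 they were 11.9, 10.0, 8.14 and 6.60 in cDC1s. Under a limma fit across all genes, 1806 of 11411 genes (15.8%) passed upward in cKO cDC1s and 749 (6.56%) downward, and in cKO cDC2s 410 (3.59%) upward and 406 (3.56%) downward. Here called means that the adjusted p was 0.01 or lower and the log2 difference 0.5 or larger in size. All 4 genes were among those called higher in both subsets, as their choice implies. Of the called cDC1 genes 70.7% were higher in cKO, against 50.0% and 52.4% with median-of-ratios and quantile scaling, which moved the median difference of all genes from 0.17 to 0.02 and 0.04. Of the called cDC2 genes 50.2% were higher, against 60.4% with median-of-ratios scaling. In these bulk libraries, a larger share of cells with the RNA and more RNA per cell cannot be told apart.

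The choice of the genes read all 6 groups, so the pDC values are a description too and no test of them is given. On the log2(TPM + 1) scale the cKO minus WT difference in pDCs was 2.09 for Apcdd1, from 2.59 ± 0.229 in WT to 14.7 ± 4.48 TPM in cKO (SD, n = 3 each). It was 1.21 for Flrt3 and 0.53 for Hsd17b6, whose 3 WT libraries were at 0 and whose 3 cKO libraries were all above 0. Csn2 had at most 1 read in a pDC library.

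Trim33 itself fell by 1.02 on the log2 scale in cKO cDC1s (16.8 to 7.80 TPM, adjusted p = 0.000349, limma) and by 1.17 in cKO cDC2s (18.7 to 7.71 TPM, adjusted p = 0.000126). In pDCs its difference was -0.68 (22.3 to 13.6 TPM, adjusted p = 0.0301, limma), which did not pass in the fit without pairing. The fit with the replicate number as a block, which pairs the pDC libraries, called it (adjusted p = 0.00361). The libraries held 18.2 to 20.1 M reads as estimated from the smallest steps in the FPKM values, so 3 reads on a transcript of 2000 bases are worth 0.138 to 0.178 TPM. The markers of each sorted subset were present in its own libraries, all 10 of 10 above 1 TPM in at least 1 library for pDCs, cDC1s and cDC2s. The summed cDC1 list overlapped between genotypes in cDC1s (5878 to 5940 TPM in WT and 5814 to 5950 in cKO). The cDC2 list also overlapped in cDC2s (1707 to 1854 and 1474 to 1731 TPM). In pDCs the pDC list was higher in cKO (21890 to 22200 and 22650 to 23680 TPM). Single genes of the lists changed with genotype, and those named here are examples. The genes of the cDC1 list that were called in cDC1s all fell, unlike the sum of their list. In cKO cDC1s Itgae fell by 2.70 on the log2 scale (69.8 to 9.86 TPM), Cadm1 by 1.74 (194 to 57.5 TPM) and Clec9a by 1.33 (541 to 214 TPM). The rest of that list was not called in cDC1s. Of these genes, Wdfy4 (667 to 917 TPM), Cd24a (547 to 687), Irf8 (1737 to 1891) and Tlr3 (191.5 to 224.6) had higher means in cKO. Batf3 (201 to 208 TPM) and Naaa (1454 to 1459) overlapped between genotypes, and Xcr1 was lower in cKO (305 to 213 TPM). In cKO cDC2s Cd4 fell by 1.37 (312 to 120 TPM), Esam by 1.17 (52.5 to 22.6 TPM) and Irf4 by 1.08 (65.1 to 29.9 TPM), while Clec10a (1.55), Mgl2 (1.14) and Itgam (1.03) rose. In cKO pDCs Cox6a2, of the pDC list, rose by 1.46 (1189 to 3283 TPM). Apart from the cDC1 list genes given as not called, all of these single genes were called (limma). The rise of the Cox6a2 mean was larger than the rise of the summed pDC list in pDCs. The rest of that list together was therefore lower in cKO pDCs.

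Markers of other tissues and cell types were read beside the 4 genes. Of 8 mammary secretory genes (the other caseins, Wap, Lalba, Elf5 and Glycam1), 2 had a row in the cDC table, and both stayed under 1 TPM, with a summed level of at most 0.26 TPM in WT cDC1s, 0.05 in cKO cDC1s and 0 in every cDC2 library. Of the other 4 casein genes none had a row in either table, so they are not analysed here. Of 7 liver genes the sum was 1.17 to 12.1 TPM in WT and 0.39 to 21.4 in cKO cDC1s, and 0.07 to 29.6 in WT and 0.45 to 15.5 in cKO cDC2s, with the genotypes overlapping. All 6 fibroblast and stroma genes were under 1 TPM in every cDC library. The summed level of 5 neuron genes was 1.51 to 3.25 TPM in WT and 17.4 to 19.3 in cKO cDC2s, where Tubb3, a neuronal beta-tubulin, was the 1 gene above 1 TPM. In cDC1s the summed lists of several blood cell types were apart between genotypes. With 2 libraries per genotype, ranges can often be apart without any change, and these sums were not tested. The pDC list also shares Irf8 with the cDC1 list. NK cell genes summed to 12.9 to 22.2 TPM in WT and 33.0 to 38.9 in cKO, neutrophil genes to 0.91 to 13.1 and 16.7 to 29.9, B cell genes to 23.8 to 32.1 and 16.6 to 17.8, and the pDC list to 1891 to 1941 and 2142 to 2211. The NK cell genes Ncr1, Klrb1c and Eomes were under 1 TPM in every cDC library, so the NK sums of both cDC subsets rest on Klrd1 and Gzma. The neutrophil genes Ly6g, Elane and Mpo were under 1 TPM in every cDC1 library. The cDC2 list went from 103.5 to 133.5 TPM in WT cDC1s to 149 to 161 in cKO. In cDC2s the pDC list was also higher in cKO (260 to 302 and 333 to 438 TPM), and endothelial genes (70.3 to 75.7 and 49.6 to 57.4) and NK cell genes (271 to 393 and 236 to 264) were lower. Neutrophil genes (7.14 to 25.2 and 15.5 to 63.8) and B cell genes (44.9 to 61.3 and 48.2 to 50.0) overlapped in cDC2s, and endothelial genes were at 45.8 to 54.4 and 41.9 to 45.6 TPM in cDC1s. Sums of the T cell, monocyte and macrophage, erythroid and epithelial lists overlapped between genotypes in both subsets. The erythroid sums were large and uneven between WT libraries, at 248 to 2101 TPM in WT and 672 to 814 in cKO cDC1s. In cDC2s they were 884 to 7234 TPM in WT and 1041 to 1564 in cKO. Platelet genes were at 3.37 to 6.25 TPM in WT and 2.61 to 2.84 in cKO cDC1s. Single genes moved within these lists: the B cell gene Ms4a1 fell by 1.48 in cDC1s and 1.46 in cDC2s, and of the macrophage genes Spic (-2.11) and Vcam1 (-1.92) fell while Ly6c2 (1.4) and Csf1r (0.85) rose in cDC1s, all called. The part of these levels in the results was not tested.

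The pattern of the 4 genes, a silent gene that became abundant, was rare. Of 6412 genes under 1 TPM in every WT cDC1 library, 12 (0.187%) had at least 10 TPM in every cKO cDC1 library. By mean cKO level these were Hsd17b6 (759 TPM), Cnpy1 (327), Selenbp2 (179), Apcdd1 (163), En2 (74.8), LOC108168956 (60.4), Flrt3 (51.5), Pcsk6 (45.5), Slc9c1 (29.7), Il20ra (18.6), Cox6a2 (15.2) and Gm17783 (13). Cox6a2 is on the pDC marker list and was not silent in WT pDCs, where it reached 1261 TPM. In the opposite direction 3 of 7420 genes (0.0404%) went from at least 10 TPM in every WT library to under 1 TPM in every cKO library. Of the 6412 silent genes, 6096 (95.1%) stayed under 1 TPM in every cKO cDC1 library.

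In cDC2s, 5 of 5906 silent genes (0.0847%) reached 10 TPM: Flrt3 (179 TPM), Csn2 (53.5), Slc9c1 (23.7), Nptxr (17.8) and Gm17783 (11). Of the silent genes 5745 (97.3%) stayed under 1 TPM in cKO. The opposite change was found for 0 of 7770 genes. Flrt3, Gm17783 and Slc9c1 were in both sets, 25% of the cDC1 set and 60% of the cDC2 set. In pDCs 0 of 5580 silent genes reached 10 TPM in every cKO library, and 5220 (93.5%) stayed under 1 TPM.

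The 4 genes lie on both sides of these limits. Csn2 was just outside the cDC1 set, at 7.87 TPM in the lower cKO library, and inside it where 5 TPM was asked for. Hsd17b6 and Apcdd1 were outside the cDC2 set through their highest WT cDC2 values of 3.91 and 1.48 TPM. Of the 14 genes in either set, 7 were highest among the WT cDC2 libraries in WT cDC2 1, 6 in WT cDC2 2 and 1 in WT cDC2 3. The 14 genes summed to 11.7, 13.7 and 4.54 TPM in these libraries.

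**Figure D2:**
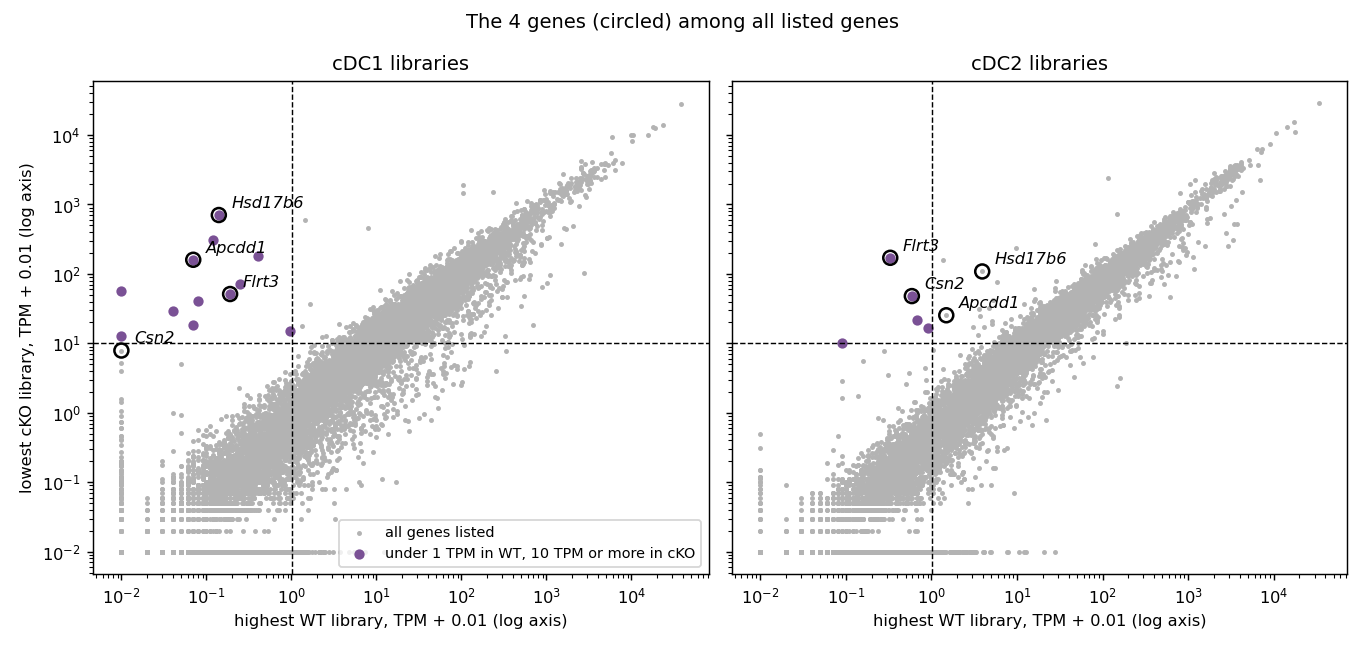
Every listed gene in cDC1s (left) and cDC2s (right) by its level in the highest WT library (x) and the lowest cKO library (y), both as TPM + 0.01 on log axes, with dashed lines at 1 and 10 TPM; purple marks the genes under 1 TPM in WT and at 10 TPM or more in cKO. The 4 circled genes lie far above the band of all genes, as their choice implies. The purple set holds 12 genes in cDC1s and 5 in cDC2s.

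Genes next to the 4 loci were tested for a change of their own. Of the 5 nearest listed genes on each side, 23 of 40 could be tested in cDCs. In cDC1s 7 of the 23 (30.4%) were called, all higher in cKO, beside 22.4% of all genes. In cDC2s 3 (13%) were called, beside 7.15% of all genes. Both counts include Macrod2, which passed the filter on low genes only through its cKO libraries. In cDC1s the number was 3 with median-of-ratios or quantile scaling, 2 without cKO cDC1 1, 3 without cKO cDC1 2 and 4 without WT cDC1 1. In cDC2s it was 1 with the replicate number as a block and 1 without either cKO cDC1 library, WT cDC2 1 or any 1 cKO cDC2 library. The median difference of the tested neighbours was 0.32 in cDC1s and 0.02 in cDC2s, where that of all tested genes was 0.17 and -0.03. In pDCs 0 of 27 were called, beside 1.05% of all genes (119), and 2 (7.41%) had an unadjusted p under 0.05, beside 20.8% of all genes. Of the 119, 92 (0.814%) were higher in cKO and 27 (0.239%) lower, and with the replicate number as a block, which paired the pDC libraries, 260 were higher and 75 lower and no neighbour was called.

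Prim1, the catalytic primase subunit of DNA replication, starts 7.57 kb from Hsd17b6 on the opposite strand, so that the 2 genes point away from each other. It rose by 1.81 on the log2(TPM + 1) scale in cKO cDC1s (SE 0.15, adjusted p = 4.46e-05, limma), where WT had 22.4 ± 2.06 and cKO 80.9 ± 6.29 TPM (SD, n = 2 each). In cKO cDC2s it rose by 1.27 (SE 0.12, adjusted p = 0.000208), where WT had 25.7 ± 2.10 and cKO 63.8 ± 10.6 TPM (SD, n = 3 each). Both calls held under every alternative run. In pDCs Prim1 had 6.97 ± 0.188 TPM in WT and 12.1 ± 2.81 in cKO (SD, n = 3 each), and the groups did not overlap. Its difference there was 0.69 and was not called (adjusted p = 0.0514, limma, and 0.0137 with the replicate block). Of the genes beyond Prim1, Ptges3 (0.56) and Atp5b (0.68) were called higher in cDC1s, and the Ptges3 call was lost under the other 3 scalings and without WT cDC1 1 or cKO cDC1 1. The 5 listed genes on the other side of Hsd17b6, Sdr9c7, Rdh7, Rdh16f2, Rdh19 and Rdh16, are of its own dehydrogenase family. The nearest, Sdr9c7, is 79.2 kb away, and none of the 5 reached 1 TPM in any cDC library.

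Macrod2, which encodes an ADP-ribose hydrolase and holds Flrt3 within it, rose by 1.2 on the log2 scale in cKO cDC1s (SE 0.18, adjusted p = 0.000729, limma), where WT had 0.545 ± 0.177 and cKO 2.55 ± 0.219 TPM (SD, n = 2 each). In cDC2s it rose by 0.83 (SE 0.14, adjusted p = 0.00418), where WT had 0.290 ± 0.105 and cKO 1.3 ± 0.211 TPM (SD, n = 3 each). The cDC2 call was lost with the replicate number as a block and without any 1 cDC2 library other than WT cDC2 2. The WT means of Macrod2 were under 1 TPM in both subsets, so it passed the filter only through the cKO libraries, where it is high. Its calls are limited by this. Without either cKO cDC1 library the gene fell below the filter. Whether the library kit marks strand was not stated, and the 2 genes run on opposite strands. In pDCs Macrod2 had 0.60 ± 0.125 and 0.633 ± 0.175 TPM and the genotypes overlapped. On the same side, Ndufaf5 (0.54), Esf1 (0.66) and Tasp1 (1.00) were called higher in cDC1s. All 3 calls were lost under both median-of-ratios and quantile scaling, with the replicate block and without either cKO cDC1 library, and none of the 3 was called in cDC2s.

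Of the 10 neighbours of Csn2 and of Apcdd1, 5 each could be tested in cDCs, as for Hsd17b6. The nearest listed genes to Csn2, Ugt2b38 at 268 kb and Enam at 789 kb, were below 0.1 TPM in mean in both genotypes of both cDC subsets. Jchain, the immunoglobulin joining chain of plasma cells 820 kb from Csn2, fell by 1.67 on the log2 scale in cKO cDC2s (19.8 ± 9.22 to 5.07 ± 1.27 TPM, SD, n = 3 each, adjusted p = 0.00698, limma), and this call was lost in 12 of 20 alternatives. Next to Apcdd1, Spink13 at 181 kb was at a mean of 0.075 TPM or less, and Napg, a vesicle fusion protein at 24.0 kb, had 24.7 and 26.9 TPM in WT and cKO cDC1s and 38.6 and 37.7 TPM in cDC2s. No neighbour of Apcdd1 was called in any subset.

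**Figure D3:**
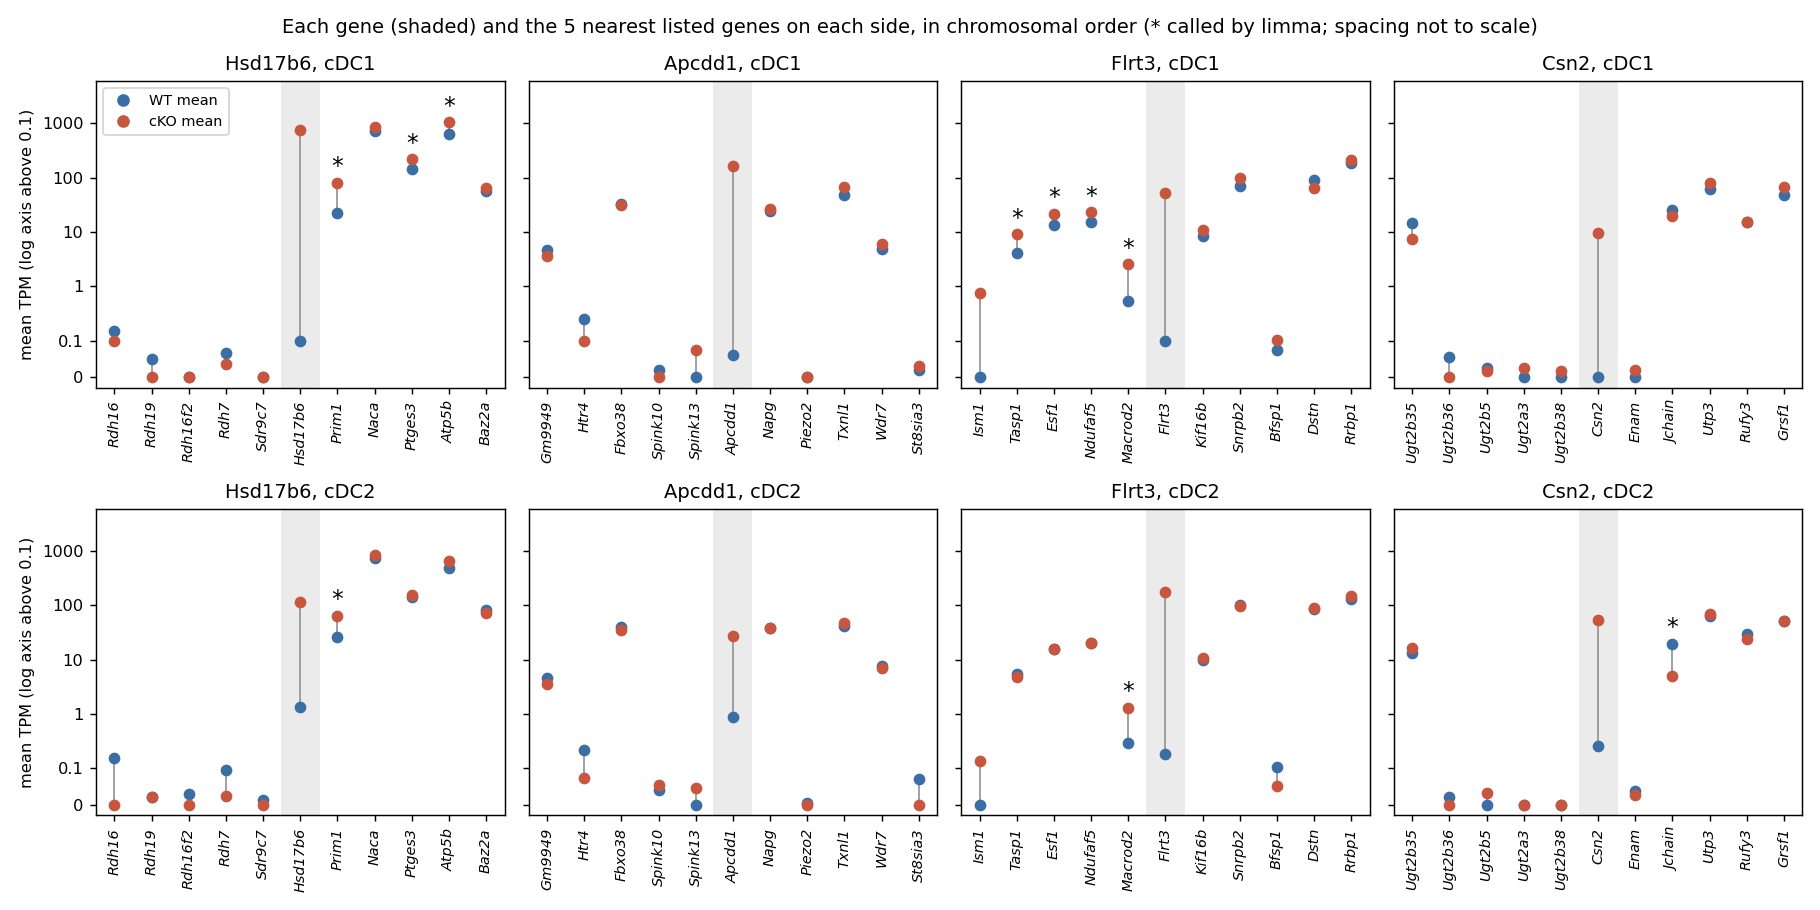
Mean TPM in WT (blue) and cKO (red) of each of the 4 genes (grey shading) and the 5 nearest listed genes on each side, in chromosomal order with spacing not to scale, in cDC1s (top) and cDC2s (bottom); the y axis is logarithmic above 0.1 TPM and an asterisk marks a gene called by limma. The 4 genes stand out from their neighbours, as their choice implies. Of the neighbours, 7 were called in cDC1s and 3 in cDC2s.

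Relatives with values were read for Hsd17b6 and Flrt3 only, and none reached the level of its relative in cKO cDCs. The other caseins had no values, and no relative of Apcdd1 was included. Flrt1 and Flrt2, the other 2 members of the FLRT family, stayed under 1 TPM in every library, with 0.10 TPM as the highest value. Of 10 dehydrogenases related to Hsd17b6, 9 had a row in the cDC table, and the highest value of any was 8.39 TPM. Dhrs9, a retinol and steroid dehydrogenase, was the 1 of these that was called: it rose by 1.5 on the log2 scale in cKO cDC1s (SE 0.18, adjusted p = 0.000231, limma), where WT had 2.10 ± 0.191 and cKO 7.75 ± 0.905 TPM (SD, n = 2 each). In cDC2s Dhrs9 had 1.13 and 0.763 TPM and was not called. Rdh5 and Rdh1, further members, were at 2.46 and 2.47 TPM in WT cDC2s and at 1.58 and 1.4 TPM in cKO cDC2s, without a call.

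Lists of the pathways around the 4 proteins held 199 genes in all, chosen with earlier results of these data known. In cDC1s 15 of 73 tested list genes (20.5%) were called, of which 7 rose and 8 fell, beside 22.4% of all genes, with a median difference of 0.03. With median-of-ratios or quantile scaling 4 of 14 called list genes were higher. In cDC2s 12 of 73 (16.4%) were called, 4 higher and 8 lower, beside 7.15% of all genes, with a median of -0.12. The cDC1 count was 7 without WT cDC1 1 or without cKO cDC1 1, and the cDC2 count was 5 with the replicate block and 5 without cKO cDC2 3. In pDCs 0 of 68 were called, and 19 (27.9%) had an unadjusted p under 0.05, beside 20.8% of all genes. The fit with the replicate number as a block called 4 of them in pDCs, Id2 (0.51) and Id3 (1.47) higher and Dvl3 (-0.51) and Epcam (-0.64) lower.

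Around Hsd17b6, 8 of 21 tested steroid and retinol genes (38.1%) were called in cDC1s, beside 22.4% of all genes. Esr1, an oestrogen receptor, rose by 1.34 (0.220 to 2.10 TPM). Hsd17b14 fell by 1.24 (2.26 to 0.390 TPM) and Hsd17b11 by 1.23 (180 to 76.0 TPM), both hydroxysteroid dehydrogenases. Aldh1a2, which makes retinoic acid, fell by 1.58 (9.15 to 2.28 TPM), and with Dhrs9 and Rdh13 (0.74) these were the 6 with the largest differences. In cDC2s 2 of 21 (9.52%) were called, beside 7.15% of all genes: Esr1 rose by 1.29 (1.64 to 5.30 TPM) and Dhrs3, a retinal reductase, fell by 0.80 (34.8 to 19.4 TPM). All are differences on the log2(TPM + 1) scale that were called (limma). Rdh13 lost its call in 10 of 21 alternatives and Dhrs3 in 6 of 20. Esr1 in cDC1s and Aldh1a2 lost theirs without WT cDC1 1 or either cKO cDC1 library (adjusted p up to 0.0188 and 0.028), Hsd17b14 without cKO cDC1 1 (0.026), and Esr1 in cDC2s without cKO cDC2 3 (0.0115).

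Around Apcdd1, 4 of 35 tested WNT and BMP genes (11.4%) were called in cDC1s, beside 22.4% of all genes. In cDC2s 6 of 35 (17.1%) were called, beside 7.15% of all genes. Wls, the carrier that WNT proteins need for secretion, rose in both, by 1.04 (1.56 to 4.24 TPM) and 0.88 (6.91 to 13.7 TPM). Dkk3, a Dickkopf family protein, fell by 4.20 in cDC1s (48.5 to 1.69 TPM), together with Porcn (-1.37) and Tcf7l2 (-1.24). In cDC2s Bmp2 fell by 2.45 (11.5 to 0.95 TPM), Dkk2, a WNT antagonist, by 1.86 (5.81 to 0.797 TPM), Tcf7 by 1.60 (77.3 to 24.7 TPM), Rnf43 by 1.16 and Tcf7l1 by 0.87. Of the genes called in cDC2s, Wls was thus the 1 that rose and 5 fell. Tcf7l1 lost its call in 9 of 20 alternatives, with an adjusted p of up to 0.026 (limma). Wls lost its call without WT cDC1 1 or cKO cDC1 1 in cDC1s and without WT cDC2 2 or cKO cDC2 3 in cDC2s (adjusted p up to 0.0206 and 0.0172), and Bmp2 without cKO cDC2 3 (0.0117).

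Around Flrt3, 3 of 8 tested partner and guidance genes (37.5%) were called in cDC1s, beside 22.4% of all genes. Adgrl3, a latrophilin that binds FLRT3, fell by 1.71 (4.59 to 0.710 TPM), its relative Adgrl1 rose by 1.19 (1.95 to 5.71 TPM) and Rnd1 fell by 0.82. The Adgrl3 call held in all 21 alternatives, while that of Adgrl1 was lost in 13 of 21 and that of Rnd1 in 12 of 21 (adjusted p up to 0.0565 and 0.0611, limma), in both cases also without WT cDC1 1 or either cKO cDC1 library. In cDC2s 0 of 8 were called, and 3 (37.5%) had an unadjusted p under 0.05, beside 34.1% of all genes. Around Csn2, 0 of 9 tested milk and secretory epithelium genes were called in cDC1s, with 5 (55.6%) at an unadjusted p under 0.05, beside 48.6% of all genes. In cDC2s 4 of 9 (44.4%) were called, beside 7.15% of all genes. Xdh, xanthine dehydrogenase, rose by 1.23 (7.71 to 19.7 TPM), and Mfge8, a milk fat globule protein, rose by 0.90 (11.4 to 22.4 TPM). Epcam fell by 1.12 (11.4 to 4.67 TPM) and Jak2, the kinase upstream of STAT5, by 0.61 (386 to 251 TPM). The calls of Epcam and Jak2 held in all 20 alternatives, while that of Xdh was lost in 12 of 20 and that of Mfge8 in 10 of 20 (adjusted p up to 0.0377 and 0.0332, limma), in both cases with the replicate block and without either cKO cDC1 library, WT cDC2 1 or 2, or cKO cDC2 1 or 3. Mfge8, Xdh, Epcam and Jak2 are also expressed by WT cDC2s, at 11.4, 7.71, 11.4 and 386 TPM.

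**Figure D4:**
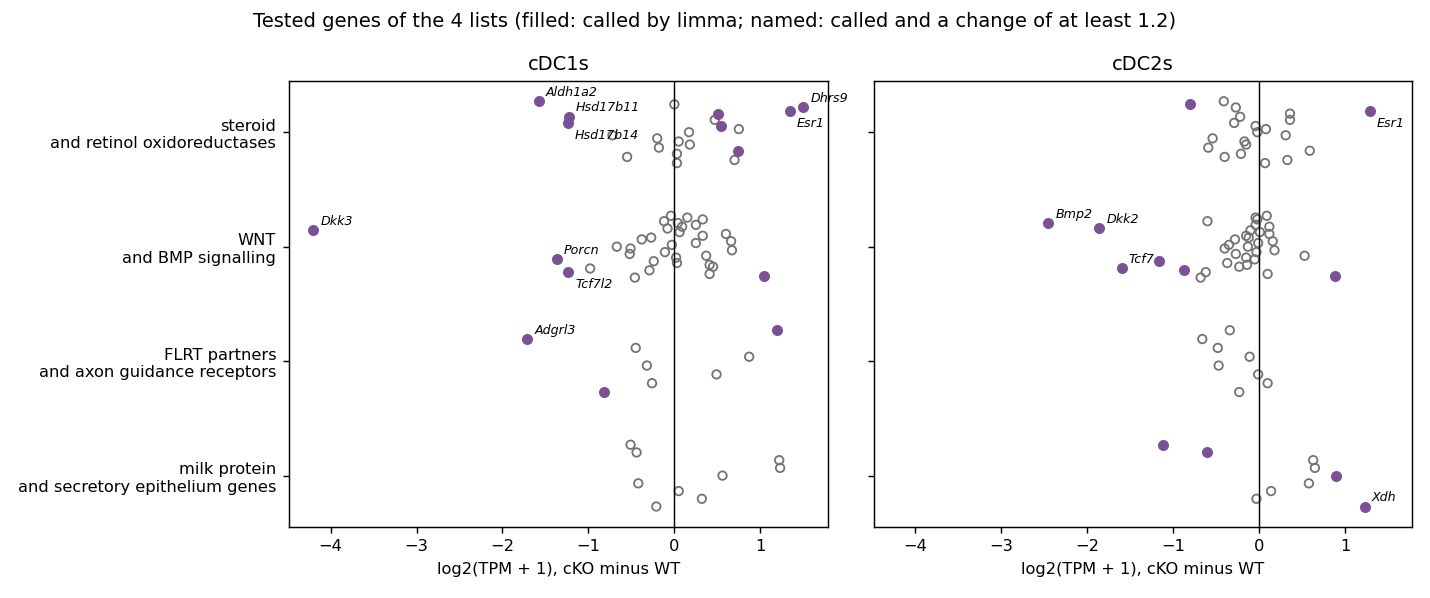
Difference of log2(TPM + 1), cKO minus WT, of each tested gene of the 4 lists (rows) in cDC1s (left) and cDC2s (right); filled points were called by limma, open points were not, and called genes with a difference of at least 1.2 are named. Points lie on both sides of 0 in each list, with 7 called genes higher and 8 lower in cDC1s and 4 higher and 8 lower in cDC2s.

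Over the 10 cDC libraries the 4 genes fell into 2 pairs. The Pearson correlation of log2(TPM + 1) was 0.985 between Hsd17b6 and Apcdd1 and 0.985 between Flrt3 and Csn2, and 0.792 to 0.899 for the other pairs of genes. These values are descriptions over libraries that differ by genotype and subset, which set most of the spread. They are computed on the levels that chose the genes, and the pairs follow the cDC subset with the higher cKO level. The genes most like each were named by the same measure. For Hsd17b6 they were Apcdd1 (0.985), Acaa2, Nptxr and Susd1 (0.982 each) and Epb41l4b (0.981), and for Apcdd1 they were Nop16 (0.992), Tmtc2 (0.991), Shmt1 (0.986), Hsd17b6 and Epb41l4b (0.985 each). For Flrt3 they were Cgn (0.988), Csn2 (0.985), Selenbp2 (0.980), Gm17783 (0.973) and Slc9c1 (0.970), and for Csn2 they were Flrt3 (0.985), Lrrc8b (0.974), Adssl1 (0.973), Efcab3 (0.965) and Tubb3 (0.962). Epb41l4b, a band 4.1 family protein, went from 1.03 to 615 TPM in cDC1s and from 2.63 to 44.3 TPM in cDC2s. Tubb3 went from 2.76 to 5.43 TPM in cDC1s and from 1.87 to 17.9 TPM in cDC2s.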

How the data were processed

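Reads (BGISEQ-500, single-end, 50 bases) had been filtered with SOAPnuke and quantified against mouse transcripts by the authors, whose processing notes name Bowtie2 2.2.5, RSEM 1.2.12, HISAT2 2.0.4 and mm10. The deposited tables hold TPM and FPKM per gene as made by the authors, 1 table of each for pDCs and 1 for cDCs. The release of the transcript set and the rule for listing a gene are not given in the sources used here. All 32 value columns were mapped to the 16 libraries. As the values are not counts, limma 3.58.1 (R 4.3.3) on log2(TPM + 1) took the place of the count model (DESeq2) of the study, with its thresholds: adjusted p of 0.01 (Benjamini-Hochberg over all genes tested) and a log2 difference of 0.5. Genes with a mean of at least 1 TPM were tested, in 1 fit over 6 pDC libraries and 1 over 10 cDC libraries as 4 group means. The planned tests of the 4 genes in pDCs are not given, since the choice of the genes read all groups, and differences of those below the filter come from a fit with none. pDCs and cDCs stand in separate tables, so levels set across them were not tested. The fits and the depth estimate were tested on simulated data.

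The 4 genes, the 4 pathway lists and the 16 marker lists were chosen with earlier results of these data known. Genes named by a rule are the 4 genes and Trim33, the nearest and the called neighbours, up to 6 called genes per list and subset, the family relatives, the 5 most correlated genes and the 10 highest silent genes. Single marker genes are named outside this rule, as examples. The marker lists were planned as a description with no test. Members and lists were matched by Entrez gene ID in RefSeq, which named 17079 of 17128 and 17667 of 17721 genes. RefSeq's promoter set holds a window for 3 of the 4 genes. Depth was estimated as the number of reads that makes low FPKM values whole counts, and reads per gene assume GENCODE M21 transcript lengths. Counts and floors of reads cover counting error only. No label ties a library to separate mice, so p-values measure the spread between pools.

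WT and cKO libraries share replicate numbers. In pDCs the deviations of same-numbered libraries from their group means correlated at 0.31, 0.392 and 0.206, so the number was taken to pair them. The planned pDC fit leaves this pairing out, and the pDC calls given first come from it (119 genes). The fit with the replicate block uses the pairing, called 335 genes in pDCs, and is given as an alternative. In cDC1s the value was -0.233 and in cDC2s -0.249, 0.253 and -0.165, so there the number was not taken to pair them. Alternatives were the replicate block, other scalings (FPKM, median-of-ratios, quantile), a pseudocount of 0.1, other filters, no trend, 2 groups alone, other thresholds and each library left out.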

Additional observations from a re-analysis of the deposited data

Results flagged for a closer look

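Of 99 neighbours and pathway genes tested, 4 passed for a difference between the 2 cDC subsets in the cKO minus WT change, by the interaction in the limma fit over 10 cDC libraries, where 2.56% of all 11411 genes passed. The 4 are given as values, and whether such genes pass more often than others was not tested. Dkk3, of the WNT list around Apcdd1, differed by -4.10 (cDC1s minus cDC2s, log2 scale, SE 0.38, adjusted p = 0.000359). It stood at 48.5 ± 1.35 and 1.69 ± 0.0424 TPM in WT and cKO cDC1s (SD, n = 2 each) and at 0.327 ± 0.324 and 0.263 ± 0.456 TPM in cDC2s (SD, n = 3 each), and the call held in 17 of 18 alternatives. Porcn, which acylates WNT proteins, differed by -1.33 (SE 0.23, adjusted p = 0.00853), and its call held in 7 of 18. Dhrs9, a relative of Hsd17b6, differed by 1.77 (SE 0.23, adjusted p = 0.00194), held in 16 of 18, and Hsd17b11 differed by -1.01 (SE 0.14, adjusted p = 0.00277), held in 13 of 18. Hsd17b6, Apcdd1, Flrt3 and Csn2 were chosen for such a difference and are not listed here.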

How the results depend on the processing

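Each group held 2 to 3 pools, so a call can rest on 1 library, and values of WT libraries near 0 rest on a few reads. Leaving out 1 library moved the number of called genes from 119 to between 12 (without WT pDC 3) and 97 in pDCs, from 2555 to between 800 (without cKO cDC1 1) and 2888 in cDC1s, and from 816 to between 316 (without cKO cDC2 3) and 907 in cDC2s. Called neighbours then ranged from 2 to 8 in cDC1s and from 1 to 2 in cDC2s, with Prim1 called each time. Called pathway genes ranged from 0 to 1 in pDCs, 7 to 18 in cDC1s and 5 to 12 in cDC2s. The difference for Apcdd1 in pDCs ranged from 1.89 to 2.31.

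With no filter on low genes 24 genes were called in pDCs, and the difference for Apcdd1 was 2.09 as with it. Without a trend 56 were called in pDCs. With an adjusted p of 0.05 and no fold limit, 514 genes were called in pDCs, 4522 in cDC1s and 2274 in cDC2s, together with 4, 27 and 20 pathway genes and 11 neighbours in cDC1s. The replicate block called 335 genes in pDCs, 1890 in cDC1s and 356 in cDC2s. Under this block 4 pathway genes were called in pDCs and 5 in cDC2s, and 4 neighbours in cDC1s and 1 in cDC2s. In cDC1s, where same-numbered libraries deviated in opposite directions, a crossed pairing, chosen after seeing the data, called 2091 genes. The fit of the 2 groups alone called 444 genes in cDC2s and 1 neighbour. Neighbours called in cDC1s came to 4 with FPKM and to 3 with median-of-ratios and 3 with quantile scaling (Prim1, Atp5b and Macrod2 in both), to 3 with 2 genes on each side and 13 with 10, and to 6 with 10 in cDC2s. Napg, near 0 throughout and never called, changed sign to -0.05 and -0.04 with those scalings in cDC1s, and to 0.00 (FPKM) and 0.01 (median-of-ratios) in cDC2s. Silent genes reaching the limit came to 1 in pDCs with silence at under 2 TPM and 3 at a limit of 5 TPM, and to 2 in cDC2s with silence at under 0.5 TPM and 3 at a limit of 20 TPM. Of the 5 genes most like each of the 4, Spearman's rho kept 0 for Hsd17b6, 0 for Apcdd1, 1 for Flrt3 and 1 for Csn2, and Pearson's r over the 5 cKO libraries kept 0 for all 4. The cause of these changes was not tested.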
